A study of Mus musculus with 2 samples.

Results

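The inhibitors of NF-kB (IkB proteins) of the mouse are encoded by Nfkbia, Nfkbib and Nfkbie, which make the classical cytoplasmic inhibitors IkB alpha, IkB beta and IkB epsilon, and by Nfkbiz, Nfkbid and Bcl3, which make the nuclear proteins IkB zeta, IkB NS and Bcl-3. These 6 genes were chosen by symbol, and all 6 were found among the 55536 gene entries of the deposited tables. Polyadenylated RNA was sequenced from bone marrow-derived macrophages of the C57BL/6J strain, phagocytes grown in culture from marrow precursors. There was 1 group of 2 libraries. Its cells had a first exposure to 100 ng/mL Lipid A of 12 h, a washout of 12 h, and a second exposure to 100 ng/mL of 30 min. Lipid A, the lipid anchor of bacterial lipopolysaccharide, is the ligand of Tlr4, but another label of these samples gives the agent as lipoprotein A. The labels number the libraries as biological replicates from separate biosamples of a shared donor record, with sex and age not collected. They do not say whether the cells came from separate animals, so the spread between the libraries may be partly technical. Untreated and singly treated cells were not analysed here, so the values are levels after the second exposure and not induction by it.

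NF-kB is a family of dimeric transcription factors that resting cells hold in the cytoplasm, bound to classical IkB proteins. Signals such as Tlr4 ligands activate the IKK kinases, which phosphorylate the classical IkB proteins and so mark them for a ubiquitin ligase and the proteasome. The freed dimers enter the nucleus, and Nfkbia and Nfkbie are themselves NF-kB target genes, so that newly made inhibitor helps to end the response. The nuclear members are not retained in the cytoplasm in this way. They bind NF-kB dimers on chromatin, and IkB zeta is known in macrophages as a coactivator needed for a subset of late inflammatory genes, among them Il6.

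Total gene counts came to 30780681 in replicate 2 and 41938419 in replicate 1. Levels are in TPM, a share of all transcripts that is scaled for transcript length, from the alignment-derived gene table unless another table is named. All 5 macrophage markers examined were expressed, with a summed level of 17194 TPM in replicate 2 and 15274 TPM in replicate 1. Of these only Lyz2 had the higher scaled count in replicate 2, and the median log2 ratio of the 5 was -0.25. The libraries also differed outside the IkB genes. The 4 neutrophil markers (S100a8, S100a9, Ngp and Camp) summed to 9.74 TPM in replicate 2 and 73.3 TPM in replicate 1. The 3 collagen genes taken as stromal markers lay closer, summing to 591 TPM in replicate 2 and 521 TPM in replicate 1. Their median log2 ratio was 0.27. T cell markers Cd3e and Cd3d had no count in replicate 2 and 0.14 TPM together in replicate 1, and the B cell marker Cd79b stood at 3.96 TPM in replicate 2 and 7.78 TPM in replicate 1. Counts of the rRNA entry CT010467.1 came to 4.25% of the total in replicate 2 and 1.37% in replicate 1. The part of these differences in the values below was not tested, and fewer cells of a type cannot be told apart from less RNA per cell in such bulk libraries.

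The start regions of the members are shown because NF-kB feeds back on part of this family. The reference sequences are the 250 bases before the annotated start, from RefSeq on GRCm38.p6, the same genome as mm10, and are written in the direction of transcription. Capitals mark the places that match the kappaB consensus, the 10-letter motif bound by NF-kB dimers, on either strand. RefSeq windows were found for 5 of the 6 members, and Nfkbiz had none in the table used. Nfkbia (chr12:55492648-55492897, minus strand) had 1 match, which began 29 bases before the start. Nfkbie (chr17:45555450-45555699, plus strand) had 1, beginning 106 bases before it. Nfkbid has 3 annotated starts, and the matches lay before the second of them (chr7:30422156-30422405, plus strand), beginning 226 and 181 bases before it. The window of Nfkbib (chr7:28766645-28766894, minus strand) held no match and is shown beside the others.
Nfkbia: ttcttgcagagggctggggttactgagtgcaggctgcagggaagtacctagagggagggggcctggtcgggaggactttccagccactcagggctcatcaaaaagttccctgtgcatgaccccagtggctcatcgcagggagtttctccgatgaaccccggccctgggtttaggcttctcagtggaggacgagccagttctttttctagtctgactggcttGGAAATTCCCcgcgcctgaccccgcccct
Nfkbie: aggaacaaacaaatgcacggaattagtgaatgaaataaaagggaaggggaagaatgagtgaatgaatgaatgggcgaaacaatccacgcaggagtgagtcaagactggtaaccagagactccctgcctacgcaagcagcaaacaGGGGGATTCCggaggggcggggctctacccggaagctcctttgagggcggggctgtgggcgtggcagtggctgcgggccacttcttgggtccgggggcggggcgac
Nfkbid, second start: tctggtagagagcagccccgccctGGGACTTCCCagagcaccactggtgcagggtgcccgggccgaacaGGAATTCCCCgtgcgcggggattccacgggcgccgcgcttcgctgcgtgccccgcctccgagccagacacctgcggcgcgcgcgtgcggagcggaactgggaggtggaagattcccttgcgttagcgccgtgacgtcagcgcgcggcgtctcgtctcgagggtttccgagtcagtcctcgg
Nfkbib: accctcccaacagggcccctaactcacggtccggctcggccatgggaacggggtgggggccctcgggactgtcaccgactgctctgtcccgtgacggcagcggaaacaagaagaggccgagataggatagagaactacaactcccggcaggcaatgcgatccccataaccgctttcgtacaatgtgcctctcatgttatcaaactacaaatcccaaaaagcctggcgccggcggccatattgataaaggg

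Bcl3 had no match in the 250 bases before its start, but the letters GGGAAGTCCC began 2 bases after the start's first base. With the window taken as 300 bases, 250 before the start and 50 from it on, 4 of the 7 windows of these 5 members held a match, 1 window in each of 4 genes. Across all 32817 such windows of the mouse genome 8.46% held one. The match of Bcl3 and the first one of Nfkbid met the consensus on both strands, and each was counted as 1 place. A match describes the letters only, and binding was not measured. With 1 mismatch allowed, 63.2% of all windows and all 7 windows of the members matched.

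Nfkbia was the most abundant member and Nfkbid the least. All 6 genes were detected at 1 TPM or more in both libraries, a level that 48.7% of protein-coding genes met. Nfkbia (ENSMUSG00000021025.8, chromosome 12, 55489410 to 55492647, mm10, minus strand) stood at 566 TPM in replicate 2 and 237 TPM in replicate 1, a mean of 402 ± 233 TPM (SD, n = 2). Its rank among 22028 protein-coding genes was 216 in replicate 2 and 599 in replicate 1. Both libraries held Nfkbia far above every other member.

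The other classical inhibitors were lower. Nfkbib (ENSMUSG00000030595.15, chromosome 7, 28758251 to 28767512, minus strand), whose protein is known for slower and more lasting turnover after stimulation than IkB alpha, stood at 60.3 TPM in replicate 2 and 51.6 TPM in replicate 1 (mean 56.0 ± 6.16 TPM, SD, n = 2). Nfkbie (ENSMUSG00000023947.8, chromosome 17, 45555703 to 45563169, plus strand), whose protein gives a delayed negative feedback, stood at 34.4 TPM in replicate 2 and 13.5 TPM in replicate 1 (mean 23.9 ± 14.7 TPM, SD, n = 2). Nfkbib was thus close between the libraries, while Nfkbie lay apart.

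Among the nuclear members Nfkbiz varied most in level. Nfkbiz (ENSMUSG00000035356.17, chromosome 16, 55811375 to 55838899, minus strand) stood at 174 TPM in replicate 2 and 37.4 TPM in replicate 1 (mean 106 ± 96.8 TPM, SD, n = 2). Nfkbid (ENSMUSG00000036931.15, chromosome 7, 30421732 to 30428746, plus strand), whose protein acts with NF-kB p50 at a subset of cytokine genes, stood at 18.5 TPM in replicate 2 and 4.49 TPM in replicate 1 (mean 11.5 ± 9.93 TPM, SD, n = 2). Bcl3 (ENSMUSG00000053175.17, chromosome 7, 19808462 to 19822770, minus strand), whose protein binds p50 and p52 homodimers, stood at 35.3 TPM in replicate 2 and 33.9 TPM in replicate 1 (mean 34.6 ± 1.00 TPM, SD, n = 2). Bcl3 had the narrowest spread of the family.

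Ordered by mean TPM, the genes ran Nfkbia, Nfkbiz, Nfkbib, Bcl3, Nfkbie, Nfkbid. The ranges of neighbours did not overlap between Nfkbia and Nfkbiz or between Nfkbib and Bcl3. They overlapped for Nfkbiz and Nfkbib, which also changed places, since Nfkbib was the higher in replicate 1. The ranges of Bcl3 and Nfkbie and of Nfkbie and Nfkbid overlapped too, although each pair kept its order in both libraries.

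**Figure D1:**
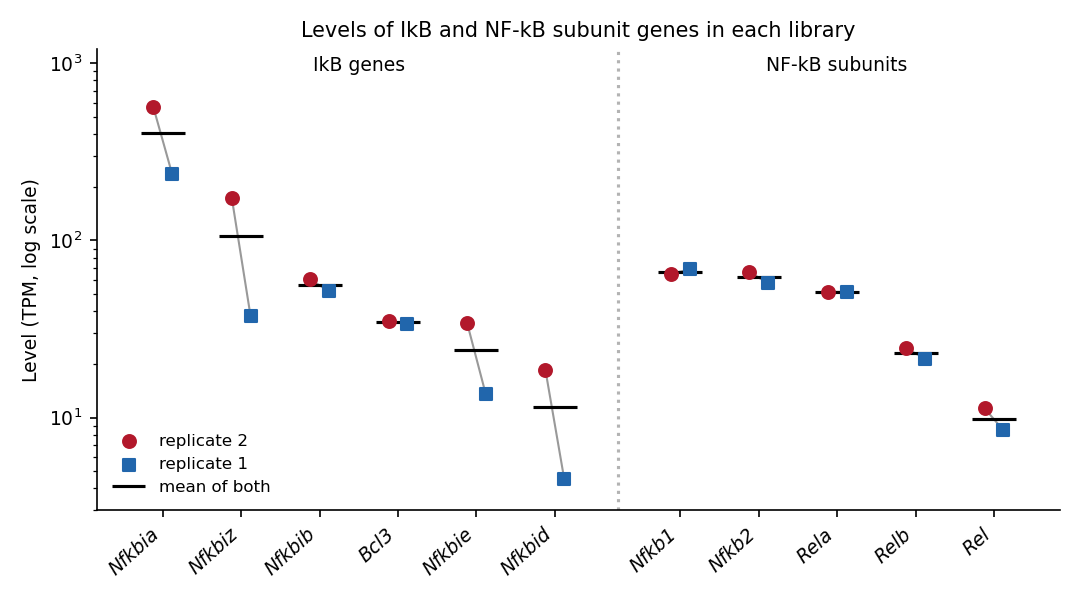
Level (TPM, log axis) of each IkB gene and of the 5 NF-kB subunit genes in replicate 2 (circles) and replicate 1 (squares), with the mean of both as a bar and a thin line joining the libraries. Nfkbia, Nfkbiz, Nfkbie and Nfkbid lie far apart between the libraries, as for Nfkbiz at 174 TPM in replicate 2 and 37.4 TPM in replicate 1, whereas Nfkbib, Bcl3 and the subunits lie close together.

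The difference between the libraries split the family. Nfkbiz, Nfkbid, Nfkbie and Nfkbia were at least 2-fold higher in replicate 2, and none of the 6 was 2-fold lower. Of 12471 genes with at least 20 counts in each library, 1.96% passed 2-fold towards replicate 2 and 0.521% towards replicate 1. The ratios are replicate 2 over replicate 1 on counts scaled by TMM factors with 0.5 added, given as log2 with exact 95% binomial intervals that cover counting error only. Each side of the ratio is a single library, so it carries no p-value and no replicate error.

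Nfkbiz had the highest log2 ratio, 2.27 (interval 2.22 to 2.33), or 4.83-fold higher in replicate 2, on 12387 counts in replicate 2 and 3513 in replicate 1. Nfkbid followed at 2.11 (1.89 to 2.34), or 4.32-fold, on 670 counts in replicate 2 and 212 in replicate 1. The intervals of these nuclear members overlapped. Among the classical members Nfkbie stood at 1.42 (1.30 to 1.55) on 1616 counts in replicate 2 and 825 in replicate 1. Nfkbia stood at 1.29 (1.25 to 1.33) on 15353 counts in replicate 2 and 8610 in replicate 1, so the intervals of Nfkbie and Nfkbia overlapped as well. Nfkbib, at 0.26 (0.15 to 0.37), and Bcl3, at 0.26 (0.14 to 0.37), lay within the range from -0.63 to 0.90 that held the central 95% of all genes. Their counts were 1239 and 1091 in replicate 2 and 1419 and 1252 in replicate 1. The split did not follow the division into classical and nuclear members, since each class held 2 of the genes past 2-fold and 1 that was not. Over all 6 genes the median log2 ratio was 1.36, beside -0.02 over the 12471 genes.

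**Figure D2:**
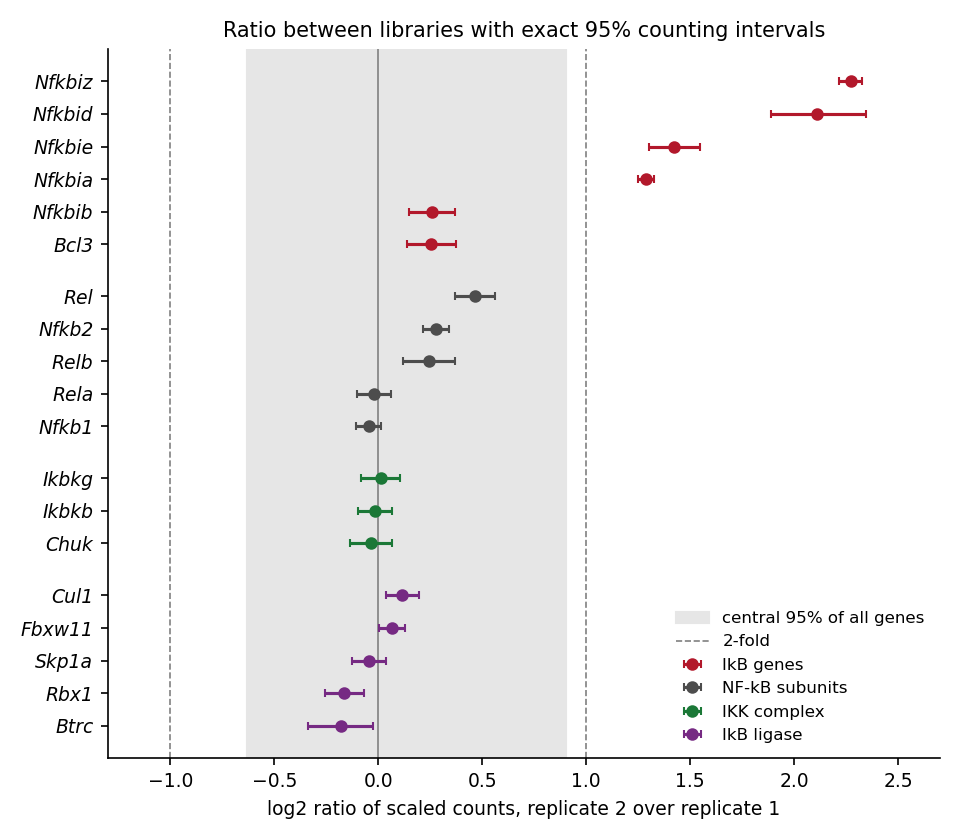
Log2 ratio of scaled counts, replicate 2 over replicate 1, with exact 95% counting intervals, for the IkB genes, the NF-kB subunits, the IKK complex and the IkB ligase. The grey band holds the central 95% of all genes (-0.63 to 0.90) and dashed lines mark 2-fold. The ratios of 4 IkB genes, between 1.29 and 2.27, lie beyond the band, and the ratios of all genes of the other lists lie inside it.

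The partners of the IkB proteins did not share this difference. None of the 5 subunit genes was 2-fold apart, and their median log2 ratio was 0.24. Most genes were not 2-fold apart either. Of the 12471 genes, 1.96% passed 2-fold towards replicate 2 and 0.521% towards replicate 1. Rela, the main transactivating subunit, stood at 51.3 TPM in both libraries, at a ratio of -0.02 (-0.10 to 0.06). Nfkb1, which encodes the p105 precursor of p50, stood at 64.8 TPM in replicate 2 and 68.7 TPM in replicate 1. Nfkb2, which encodes the p100 precursor of p52, stood at 66.6 TPM in replicate 2 and 57.2 TPM in replicate 1. Relb stood at 24.6 TPM in replicate 2 and 21.6 TPM in replicate 1. Rel had the highest ratio of the subunits, 0.47 (0.37 to 0.56), at 11.3 TPM in replicate 2 and 8.49 TPM in replicate 1.

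The genes that lead to IkB breakdown were also close between the libraries. The kinase genes Chuk and Ikbkb stood at 21.9 and 41.3 TPM in replicate 2 and at 23.6 and 45.6 TPM in replicate 1. Ikbkg, which encodes the regulatory subunit of the kinase complex, stood at 20.3 TPM in replicate 2 and 24.1 TPM in replicate 1, and the median log2 ratio of these 3 genes was -0.02. The ligase that binds phosphorylated IkB is built from Skp1a, Cul1, Rbx1 and one of the substrate receptors Btrc and Fbxw11. None of its 5 genes was 2-fold apart, as was the case for most genes, and the median was -0.04. Fbxw11 stood at 51.8 TPM in replicate 2 and 52.4 TPM in replicate 1, and Btrc at 12.7 TPM in replicate 2 and 13.7 TPM in replicate 1, so Fbxw11 was the more abundant receptor in both. Skp1a was the highest of the list, at 92.3 TPM in replicate 2 and 92.6 TPM in replicate 1, followed by Rbx1, at 75.3 TPM in replicate 2 and 87.3 TPM in replicate 1. Cul1 stood at 37.6 TPM in replicate 2 and 36.7 TPM in replicate 1.

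The make-up of each class therefore differed between the libraries. The 3 classical genes together reached 661 TPM in replicate 2 and 302 TPM in replicate 1. Nfkbia made up 85.7% of that sum in replicate 2 and 78.4% in replicate 1, Nfkbib 9.13% in replicate 2 and 17.1% in replicate 1, and Nfkbie 5.20% in replicate 2 and 4.47% in replicate 1. The 3 nuclear genes summed to 228 TPM in replicate 2 and 75.8 TPM in replicate 1. Nfkbiz made up 76.4% of the nuclear sum in replicate 2 and 49.4% in replicate 1, Bcl3 15.5% in replicate 2 and 44.7% in replicate 1, and Nfkbid 8.13% in replicate 2 and 5.93% in replicate 1. Nfkbiz and Bcl3 were thus near each other in replicate 1, whereas Nfkbiz led by far in replicate 2. Set against the summed level of the 5 subunit genes, 219 TPM in replicate 2 and 207 TPM in replicate 1, the classical sum was 3.02 times as high in replicate 2 and 1.46 times in replicate 1. For the nuclear sum these values were 1.04 in replicate 2 and 0.366 in replicate 1. They compare RNA levels, and no protein was measured.

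**Figure D3:**
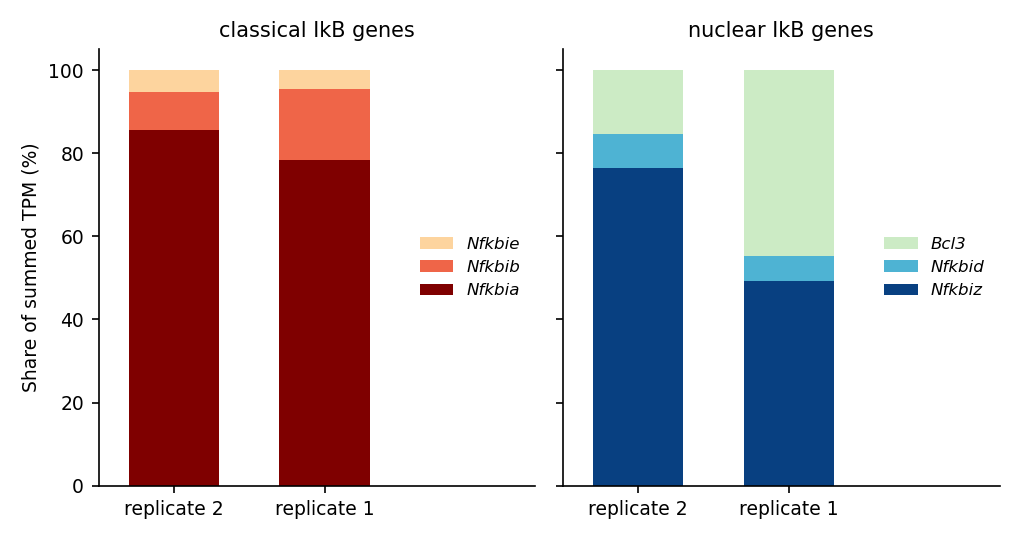
Share (%) of the summed TPM taken by each gene, within the classical IkB genes (left panel) and within the nuclear IkB genes (right panel), with replicate 2 left of replicate 1. Nfkbia takes most of the classical sum in both libraries, and the share of Nfkbiz is 76.4% in replicate 2 and 49.4% in replicate 1.

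Genes known to need IkB zeta for full induction did not move together. Of the 6 listed, 4 reached 1 TPM in both libraries, a level that 48.7% of protein-coding genes met. At least 2-fold higher in replicate 2 were 2 of the 5 with enough counts, Il6 and Edn1. Of all 12471 genes with enough counts, 1.96% were. The cytokine gene Il6 stood at 8.34 TPM in replicate 2 and 0.89 TPM in replicate 1, on 170 counts in replicate 2 and 21 in replicate 1. Edn1, which encodes endothelin 1, stood at 2.88 TPM in replicate 2 and 1.18 TPM in replicate 1, on 114 and 62 counts. Its log2 ratio was 1.33, with an interval (0.87 to 1.80) that reached below 2-fold. Both Il6 and Edn1 would fall out at a minimum of 100 counts in each library. Il12b, a subunit of interleukin 12, stood at 10.60 TPM in replicate 2 and 8.44 TPM in replicate 1, a log2 ratio of 0.37 (0.16 to 0.59). By contrast Lcn2, an iron-binding antibacterial protein, was lower in replicate 2, at 64.0 TPM against 100.5 TPM in replicate 1. The cytokine subunit gene Ebi3 stood at 239.9 TPM in replicate 2 and 327 TPM in replicate 1, and Csf2 had 4 counts in replicate 2 and 1 in replicate 1. The library with more Nfkbiz RNA thus had more Il6, Edn1 and Il12b RNA and less Lcn2 and Ebi3 RNA. With 2 libraries no relation could be tested.

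The protein-coding genes nearest to each member over both libraries were found by distance on log2(TPM + 1), with 2 libraries as the only points. For Nfkbiz these were the phosphatase gene Dusp2, at 162 TPM in replicate 2 and 41.3 TPM in replicate 1 (distance 0.18), and the chemokine gene Cxcl2, at 230 TPM in replicate 2 and 39.7 TPM in replicate 1 (0.41). For Nfkbia they were Ly6a (0.11) and Ifit1bl1 (0.30), for Nfkbie AA467197 (0.06) and Rnase6 (0.15), and for Nfkbid Itgb7 (0.14) and Klk1b11 (0.23). For Nfkbib they were Zfr (0.01) and Cd86 (0.02), and for Bcl3 March2 was among them (0.02).

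Transcripts were examined in the FASTQ-derived table, which gives each annotated transcript a share of its gene's TPM. In 5 of the 6 genes a single coding transcript took 84.6% or more in both libraries. Nfkbib-202 took 98.9% in replicate 2 and 98.8% in replicate 1, and Nfkbia-201 95.9% in replicate 2 and 97.9% in replicate 1. Nfkbiz-204 took 92.1% in replicate 2 and 94.7% in replicate 1, the full-length transcript of Bcl3 86.5% in replicate 2 and 87.1% in replicate 1, and Nfkbie-201 84.6% in replicate 2 and 94.2% in replicate 1. Nfkbid was the exception in this table, with Nfkbid-203 at 70.8% in replicate 2 and 76.3% in replicate 1. In the alignment-derived table Nfkbid-203 took 92.0% in replicate 2 and 90.9% in replicate 1, so the gene that stood apart depended on the table. The leading transcript of Bcl3 took 89.5% in replicate 2 and 77.5% in replicate 1 there, and no leading share of the other genes was as low as its share in replicate 1.

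**Figure D4:**
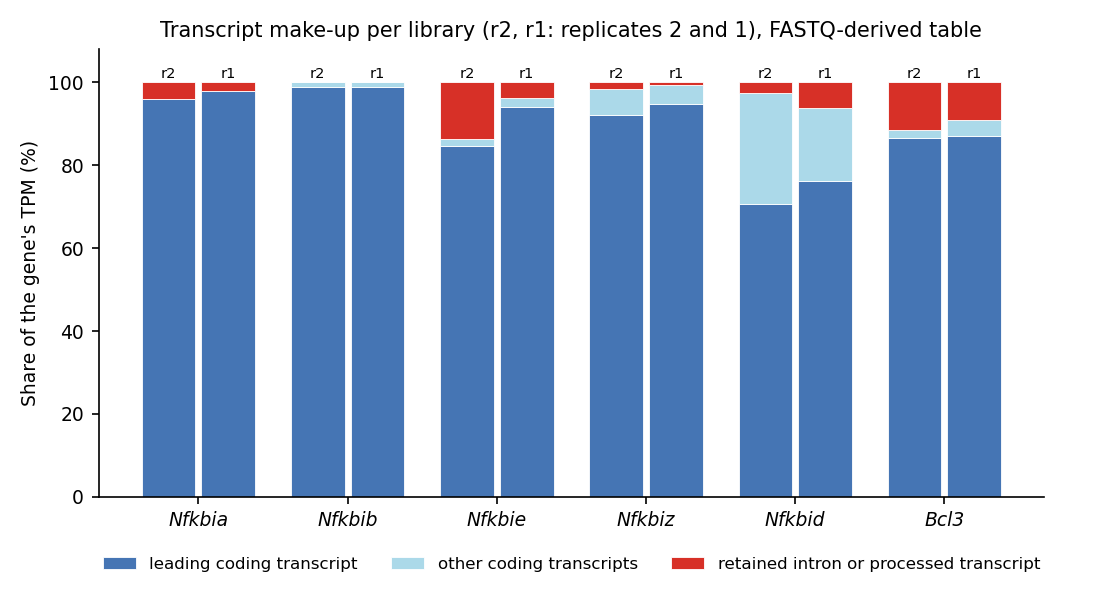
Share (%) of each gene's TPM taken by its leading coding transcript, its other coding transcripts and its noncoding transcripts (retained intron or processed), with replicate 2 (r2) left of replicate 1 (r1) for each gene. The last class is widest for Nfkbie in replicate 2, at 13.6% against 3.88% in replicate 1.

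Nfkbie carried the clearest difference in transcript make-up. Nfkbie-202 keeps intron 2 (610 bases, chromosome 17, 45558598 to 45559207) and took 13.6% of the gene's TPM in replicate 2 and 3.88% in replicate 1, on 298 estimated counts in replicate 2 and 43.0 in replicate 1. The alignment-derived table gave 10.2% in replicate 2 and 2.81% in replicate 1, on 203 counts (posterior SD 19.7) in replicate 2 and 28.9 counts (posterior SD 7.85) in replicate 1. The borders of this intron distinguish the transcripts and are shown as reference sequence of GENCODE M21 transcripts, with the first and last pair of intron bases in capitals.
Exon 2 into intron 2 (chr17:45558583-45558612, plus strand): aacaacctttaccagGTgagtagagagaga
Intron 2 into exon 3 (chr17:45559193-45559222, plus strand): cctctatgcctacAGacagcactgcatctg
Exon 2 joined to exon 3: aacaacctttaccagacagcactgcatctg

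The log2 ratio between the libraries was 3.21 (2.76 to 3.72) for the intron-keeping transcript and 1.25 (1.13 to 1.38) for the spliced Nfkbie-201, so the intervals did not overlap. Estimated counts of transcripts that share exons are not independent, and the intervals do not cover that. In Nfkbia the transcript Nfkbia-202, annotated as retained intron, took 4.11% in replicate 2 and 2.11% in replicate 1. It lacks the first and last exons of Nfkbia-201 and has 32 bases of the first intron that lie outside that transcript. Its log2 ratio was 2.20 (1.82 to 2.60), against 1.25 (1.21 to 1.28) for Nfkbia-201. Of the 6 genes, 5 have transcripts of the noncoding types retained intron or processed transcript, and the summed share of these was higher in replicate 2 for Nfkbia, Nfkbie, Nfkbiz and Bcl3. Among 5816 protein-coding genes at 10 TPM or more with such a transcript, the share was higher in replicate 2 for 56.6% and at least 2-fold higher for 18.3%. Only Nfkbie and Nfkbiz of the family passed 2-fold, at 3.51 and 2.46 times. The value of Nfkbiz rests on Nfkbiz-205, with 76.7 estimated counts in replicate 2 and only 9.01 in replicate 1. The median share over the 5816 genes was 4.51% in replicate 2 and 3.54% in replicate 1. The direction of Bcl3 depended on the table, with 11.4% in replicate 2 and 8.97% in replicate 1 here but 0.368% in replicate 2 and 5.28% in replicate 1 in the alignment-derived table. Nfkbid went the other way, at 2.60% in replicate 2 and 6.08% in replicate 1, on under 4 estimated counts each.

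Nfkbiz used mainly its inner start. Nfkbiz-204 begins 16761 bases inside the gene and has 2184 coding bases. Nfkbiz-203, which begins at the outer start and has 1887 coding bases, took 6.30% in replicate 2 and 4.61% in replicate 1. The alignment-derived table gave it 717 counts (posterior SD 76.3) in replicate 2 and 171 counts (posterior SD 40.0) in replicate 1. Nfkbiz-205, a processed transcript that also begins at the outer start and ends before the inner one, took 1.61% in replicate 2 and 0.654% in replicate 1. These shares rest on 76.7 estimated counts in replicate 2 and 9.01 in replicate 1. Together the transcripts of the outer start took 7.91% in replicate 2 and 5.26% in replicate 1. The log2 ratio was 2.68 (2.46 to 2.92) for Nfkbiz-203, 3.46 (2.53 to 4.71) for Nfkbiz-205 and 2.19 (2.14 to 2.25) for Nfkbiz-204. Nfkbiz-201, Nfkbiz-202 and Nfkbiz-206 were listed at 0 in both libraries and both tables.

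The starts of Nfkbid were divided differently by the tables. Nfkbid-203, from the first start and with 1410 coding bases, led in both. Nfkbid-202, which begins 674 bases further in, after the window with the kappaB matches, and has 981 coding bases, took 14.1% in replicate 2 and 14.0% in replicate 1 of the FASTQ-derived TPM but had no count in the alignment-derived table. Nfkbid-201, from the third start, took 12.5% in replicate 2 and 3.65% in replicate 1, on 109 estimated counts in replicate 2 and 10.1 in replicate 1. In the alignment-derived table it took 5.61% in replicate 2 and 5.35% in replicate 1, on 39.1 counts (posterior SD 18.3) in replicate 2 and 11.8 counts (posterior SD 12.9) in replicate 1. Start use of Nfkbid was therefore not resolved beyond the lead of Nfkbid-203.

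**Figure D5:**
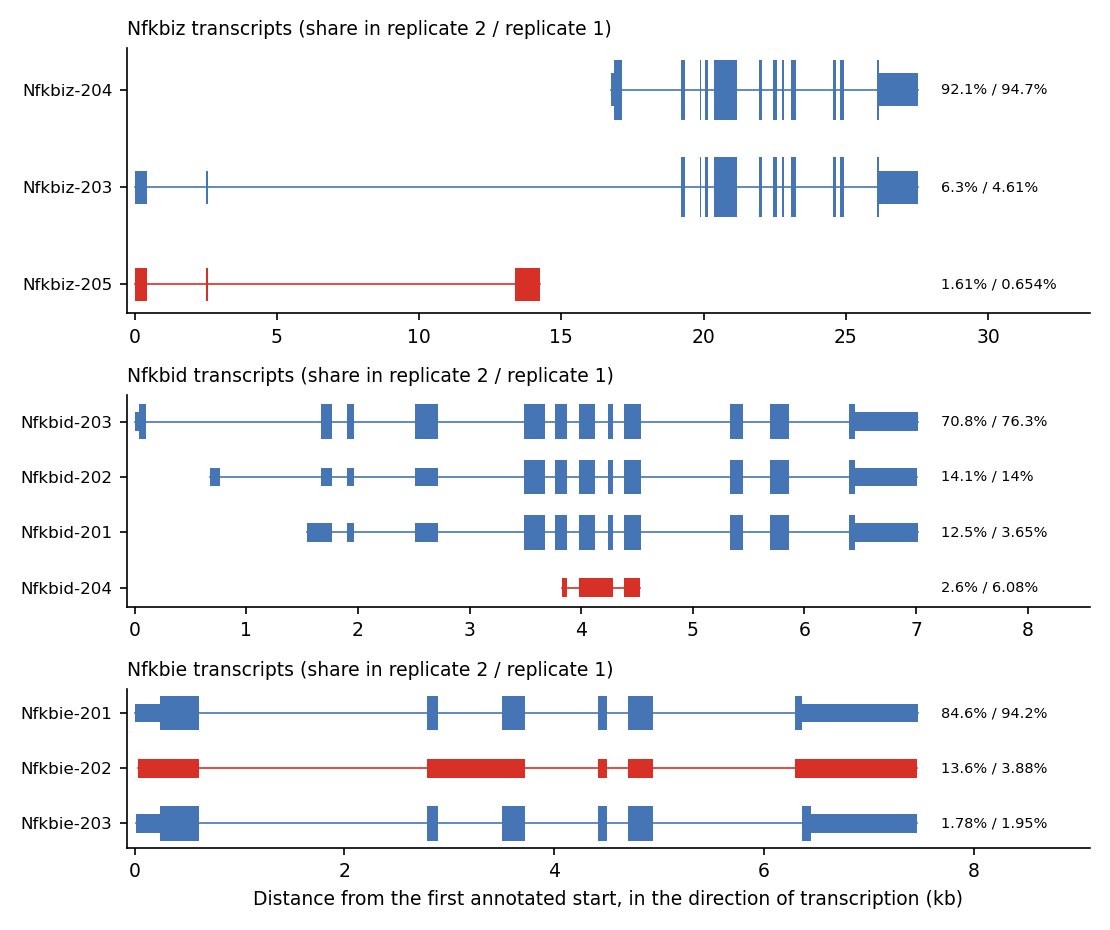
Annotated transcripts of Nfkbiz, Nfkbid and Nfkbie with a share above 0, drawn to scale by distance (kb) from the first annotated start, with thick boxes for coding bases, thinner boxes for other exon bases, blue for coding transcripts and red for the others. Percentages give the share of the gene's TPM in replicate 2 and replicate 1, and the wide second exon of Nfkbie-202 holds the kept intron.

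Bcl3 and Nfkbib lie over other genes. Bcl3-203, a short coding transcript within the last 3 exons, took 2.10% in replicate 2 and 3.93% in replicate 1 in the FASTQ-derived table but 10.1% in replicate 2 and 17.2% in replicate 1 in the alignment-derived one. Of the antisense genes Gm16175 and Gm16174, the first spans coding exons of Bcl3 and the second lies within its second intron. They stood at 0 and 2.89 TPM in replicate 2 and at 0 and 1.73 TPM in replicate 1. Gm16174 had only 8 counts in replicate 2 and 7 in replicate 1, below the minimum of 20 used for ratios. In the FASTQ-derived table Gm16175 and Gm16174 stood at 1.61 and 3.61 TPM in replicate 2 and at 0.389 and 1.74 TPM in replicate 1. Nfkbib shares its outer 5′ part with Sirt2 on the other strand, at 107 TPM in replicate 2 and 135 TPM in replicate 1, and its outer 3′ part with Ccer2, at 0 counts in both. Both overlaps lie outside Nfkbib-202, the transcript that took nearly all of the gene's level. With the strand setting of the counting not given in the sources used here, reads in overlapping exons cannot be assigned with certainty. For the members, the tables were close at gene level. After centring on the median of all genes, the FASTQ-derived level over the alignment-derived level was between -0.06 for Nfkbib and 0.17 for Nfkbid on the log2 scale, so no member differed 2-fold, beside 0.767% of 10820 protein-coding genes that did.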

How the data were processed

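Gene and transcript levels were measured in 2 libraries of 1 group. The authors deposited alignment-derived gene and transcript tables with expected counts and TPM, and a FASTQ-derived transcript table with estimated counts and TPM, on mm10 with GENCODE M21, per the text deposited with each sample and the file headers. The tools and strand settings were not given in the sources used here. Spread of read assignment comes from the count's posterior SD, another column of these tables. Counts were rounded, and 26345 entries without a mouse Ensembl gene ID, with 0.0667% of counts in replicate 2 and 0.0526% in replicate 1, were left out. TMM factors came from edgeR 4.0.16, and alternatives used total counts or size factors from DESeq2 1.42.0 (R 4.3.3, Python 3.11.15, scipy 1.17.1). With 1 library on each side no test was made, and a 2-fold rule with at least 20 counts in each library was used. The ratio step was tested on simulated data. The libraries were no copies of each other, with a chi-square of 95.0 for each degree of freedom (13937 genes). The upper limit for a gene at 0 is 3 counts, or 0.0975 CPM in replicate 2 and 0.0715 CPM in replicate 1, and intervals and floors cover counting error only. The members and gene lists were chosen with earlier results of these data known. Named genes were the members, all genes of the lists, genes that overlap a member, and the 2 protein-coding genes nearest to each, of which some are not reported here. A planned search of the members' proteins for the IKK phosphodegron was not run, since no protein table was used here.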

Additional observations from a re-analysis of the deposited data

How the results depend on the processing

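The count of 4 members past 2-fold was the same under DESeq2 size factors, total counts, 5 added to the counts and the FASTQ-derived table. It was also the same with no count filter and with at least 100 counts in each library. The 36 single log2 ratios over all these settings stayed within the counting interval of their reported value. The filter settings could not change these results, since every member had at least 212 counts in each library. The share of all genes past 2-fold depended on the filter, with 5.45% higher and 4.63% lower in replicate 2 without one, and 1.02% higher and 0.313% lower at 100 counts. All 6 members stayed detected in the FASTQ-derived table, and 5 did at 10 TPM. Their detection in either library alone follows from the rule, which asks for 1 TPM in both. Levels moved by more than the SD for Nfkbib (47.6 TPM) and Bcl3 (30.7 TPM) in the FASTQ-derived table, and for Bcl3 (37.4 TPM) with TPM over protein-coding genes. The SD was 6.16 TPM for Nfkbib and 1.00 TPM for Bcl3. After centring on the median of all genes, the FASTQ-derived level differed by -0.06 for Nfkbib and 0.004 for Bcl3 on the log2 scale. Mean transcript shares that moved were those of Nfkbib-202 (99.0%), Nfkbid-203 (91.4%) and the leading one of Bcl3 (83.5%) in the alignment-derived table, and of Nfkbia-201 (98.9%), Nfkbib-202 (97.9%) and the leading one of Bcl3 (97.2%) as shares of estimated counts, which do not correct for length. The cause of the others was not tested. With 1 mismatch the kappaB consensus was found in 5 members, against 4 without. Each mean rests on 2 libraries, so leaving out either gives the value of the other. No paired analysis was possible because there is only 1 group.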
